A study of Mus musculus with 3 samples.

Results

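The genes described here encode intermediate filament proteins other than keratins: vimentin, desmin, glial fibrillary acidic protein, nestin, the lamins and the neuronal filament proteins. The listed genes were Vim, Des, Gfap, Nes, Lmna, Lmnb1, Lmnb2, Nefl, Nefm and Prph, measured on 3 two-colour Agilent arrays of RNA from EpH4-PR cells. The list was chosen by measured ratios of these arrays, among which Vim was known to be the lowest named one, so the ratios of its genes are given as a description with no test. The array names 13 gene probes after 8 of the 10 genes, out of 41174 gene probes with 29273 names. Nefm and Prph carry the older names Nef3 and Prph1, and the 1 probe of each was found by its RefSeq accession and is given apart from the 13.

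EpH4 is a mouse mammary epithelial cell line, and EpH4-PR cells are EpH4 cells stably transfected with PR-A, an isoform of the progesterone receptor, and taken through selection of clones. The cells were grown as subconfluent cultures in medium with serum, and the labels name no hormone treatment. RNA of EpH4-PR cells was labelled with Cy5 on each of the 3 arrays and hybridised against a commercial reference, named in the labels as Stratagene mouse standard, labelled with Cy3, with no dye swap. Each ratio therefore sets EpH4-PR cells against a reference whose makeup the sources used here do not give. Arrays of EpH4-EV cells, which carry the empty vector, were not analysed here, so no value measures an effect of PR-A. The labels number the arrays as 3 replicates without saying that they came from separate cultures, so their spread may be technical.

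Intermediate filaments are rope-like polymers of proteins that share a coiled-coil rod. Keratins form them in epithelia, vimentin in mesenchymal cells and in many cells grown in culture, desmin in muscle, glial fibrillary acidic protein in astrocytes, and neurofilament proteins and peripherin in neurons. The lamins line the inner face of the nuclear envelope: B-type lamins are found in nearly all nucleated cells, and the A-type lamins, both made from Lmna, are more abundant in differentiated ones.

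Ratios are log2 values of Cy5 over Cy3 after correction for background and loess normalization within each array, so that 0 means equal to the middle of probes of like brightness and 1 log2 unit is a doubling. A probe was called when its ratio was at least 1 log2 unit from 0 at an adjusted p under 0.05 by limma with Benjamini-Hochberg adjustment over all 41174 probes. By that rule 1578 probes (3.83%) were called lower and 932 (2.26%) higher in the EpH4-PR channel. The log2 ratios of all probes correlated at 0.952 between replicates 1 and 2, at 0.923 between 1 and 3, and at 0.929 between 2 and 3, a description over probes, which are not replicates. Spots had a median Cy5 intensity of 112, 113 and 93.8, while the negative control spots had medians of 72.1, 73.7 and 57.0 in Cy5 and 118, 121 and 91.5 in Cy3. The precision of each ratio is limited by there being 3 arrays. The 7 probes of 6 epithelial markers were all called higher under this centring, from Cdh1 (E-cadherin) at 4.29 to a Krt8 probe at 1.12. The only keratins among these markers are Krt8 and Krt18. Of the other keratins given below, Krt7 and Krt14 were called higher, Krt19 was called lower at -2.62, and Krt5 at -0.11 was not called. The scanner software marked each of the 7 marker probes as well above background in both channels. The Cy3 intensity of Cldn4 (124, 125 and 99.0) and of Esrp1 (121, 123 and 96.9) nevertheless lay among the negative controls. That of Cdh1 (146, 141 and 116) was only a little above the brightest of them, at 139, 137 and 107.

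Of the 13 probes, 2 were called lower, 1 each of Vim and Nes, and 1 was called higher, that of Lmnb1. These counts stand beside the 3.83% and 2.26% of all probes called in each direction, and since the same ratios were known when the list was made, nothing is read from them. The mean ratio was below 0 for 9 probes and above 0 for 4, with a median of -0.31 against -0.01 over all probes. In 10 of the 13 the scanner software marked the spot in each channel as well above background on all 3 arrays. None of the 13 had a saturated or outlier spot, and their median SD between arrays was 0.06, against 0.09 over all probes.

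**Figure D1:**
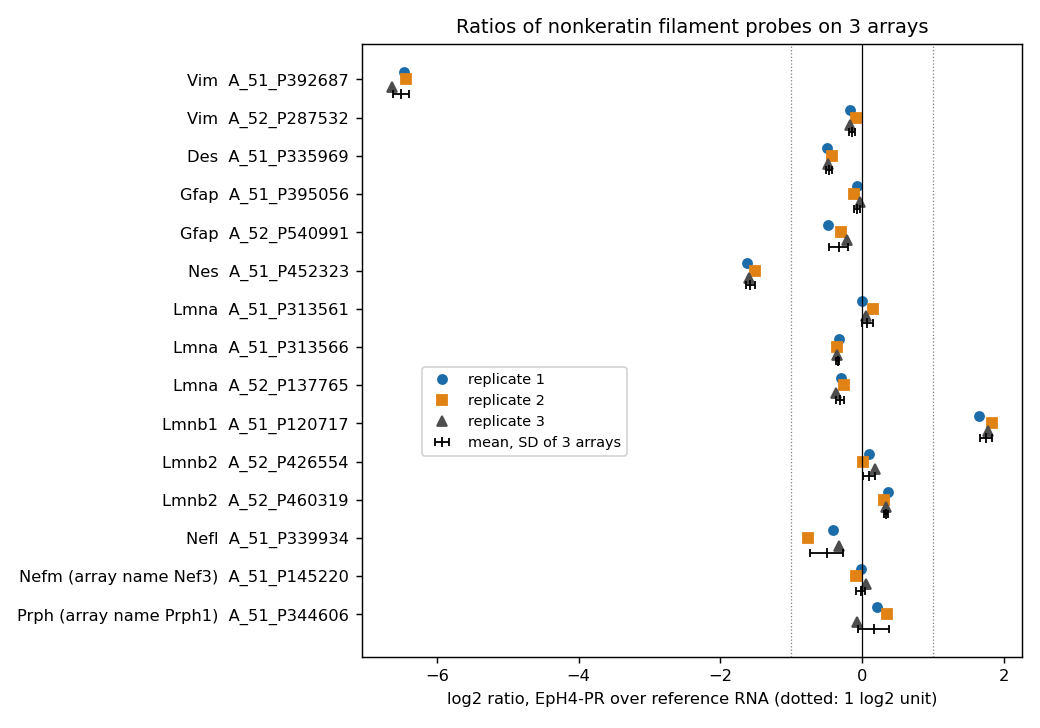
Log2 ratio, Cy5 (EpH4-PR) over Cy3 (reference), on the x axis for each of 3 arrays for the 13 probes named after the listed genes and the 2 probes found by accession (rows), with the mean and SD under the points. One Vim probe lies near -6.5 on every array, Nes between -1.62 and -1.51, Lmnb1 between 1.65 and 1.83, and all other probes within 1 log2 unit of 0.

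The 2 genes with a probe called lower are shown by the bases just before their start sites, so that the sequence stands beside the ratio. Both stretches are 250 bases long, read 5′ to 3′ on the plus strand from RefSeq on assembly GRCm38.p6, and capitals mark matches on either strand to the letters of the TATA box, the CCAAT box and the GC box. The TATA box was searched as TATAAA. The GC box was searched as GGGCGG. Vim spans chr2:13574311-13582826 and Nes chr3:87971093-87980451 on that assembly, and the files themselves name no genome build. The Vim stretch is chr2:13574061-13574310 and the Nes stretch is chr3:87970843-87971092.
Vim: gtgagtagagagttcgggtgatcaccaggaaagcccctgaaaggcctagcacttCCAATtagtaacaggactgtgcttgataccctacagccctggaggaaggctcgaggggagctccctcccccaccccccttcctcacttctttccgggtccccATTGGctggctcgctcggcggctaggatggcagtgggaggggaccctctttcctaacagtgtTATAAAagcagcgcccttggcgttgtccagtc
Nes: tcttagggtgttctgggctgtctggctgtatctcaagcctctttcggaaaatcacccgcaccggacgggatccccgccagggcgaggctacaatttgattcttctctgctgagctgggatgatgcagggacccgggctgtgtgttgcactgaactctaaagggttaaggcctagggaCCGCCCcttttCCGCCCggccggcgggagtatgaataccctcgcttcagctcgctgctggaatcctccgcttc
The Vim stretch held 1 match to the TATA box, whose first base lay 32 bases before the start, and 2 to the CCAAT box, the second of them on the minus strand, with first bases 196 and 94 bases before it. The Nes stretch held 2 matches to the GC box, both on the minus strand, at 73 and 62 bases, and none to the other 2 motifs. An AP-1 motif, searched as TGAGTCA, had no match in either. Over the 250 bases before each of 32851 RefSeq start sites, 12.4% held the TATA box letters, 33.8% the CCAAT box letters, 32.7% the GC box letters and 4.46% the AP-1 letters. GC content was 58.4% for Vim and 58.8% for Nes, with a median of 52.4% over the same 32851 stretches. These matches describe letters only, and no binding was measured.

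Vimentin, the filament protein of fibroblasts and other mesenchymal cells, had the lowest ratio on the arrays. Its probe for the RefSeq transcript (A_51_P392687) read 1083, 924 and 917 in Cy5 and 29941, 25986 and 29809 in Cy3 on the 3 arrays in turn. As scanned, Cy3 was thus 27.6, 28.1 and 32.5 times Cy5, before any correction for dye. After normalization the log2 ratio was -6.46, -6.43 and -6.64, a mean of -6.51 ± 0.11 (SD, n = 3), which is 91.2-fold lower in EpH4-PR RNA. Of those log2 units 1.67, 1.62 and 1.62 came from background correction and loess together, and with median centring the mean was -5.04.

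The Vim signal in EpH4-PR RNA was low against the reference but not at background. In Cy5 it was 15.7, 13.3 and 16.3 times the background fitted for that spot, and none of the 278, 278 and 287 negative control spots on the 3 arrays reached it, the brightest reading 82.6, 85.2 and 62.8. Among the 25729 probes that were well above background on all arrays in Cy5 and in Cy3, this one ranked lowest, but among named probes it ranked 2 with a normexp offset of 0 and 4 by the log ratio of the scanner software. The named genes next to it were Serpinf1, a secreted serpin, at -5.53, Efemp1, an extracellular matrix glycoprotein, at -5.47, and Egr1, an immediate early transcription factor, at -5.33. These ratios are listed as a description, since the place of Vim among them was known when the list was made.

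A second Vim probe (A_52_P287532), designed on the cDNA AK033175, showed almost no signal. It read 69.7, 65.6 and 54.9 in Cy5 and was not well above background there on any array, and it read 113, 99.5 and 87.4 in Cy3, where 2 of 3 arrays passed. In Cy5, 223, 272 and 244 negative control spots were at or above it. Its ratio was -0.16, -0.09 and -0.17, a mean of -0.14 ± 0.05 (SD, n = 3). In Cy3, 213, 277 and 226 negative control spots were at or above it as well, and with the negative controls as background the mean was -0.02, so no fold is given. The 2 Vim probes thus disagree in size, and the second had little signal in either RNA. The lowest ratio therefore rests on the first probe alone.

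**Figure D2:**
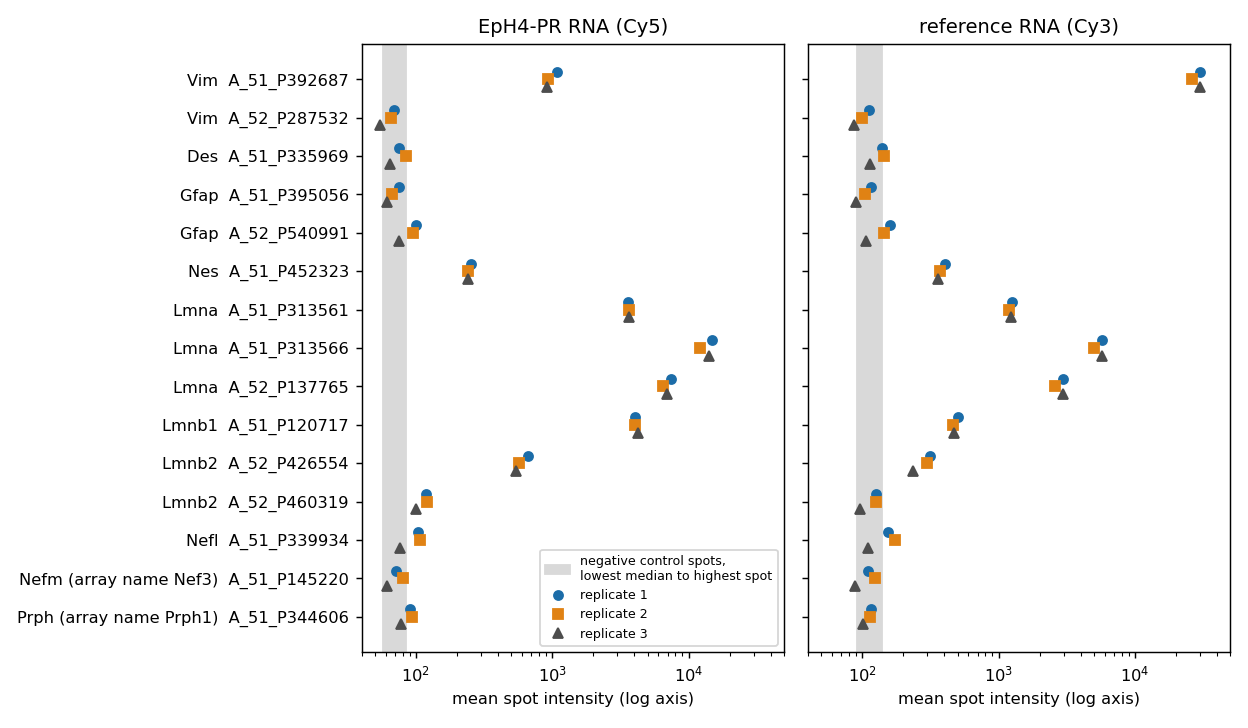
Mean spot intensity (log axis) of each probe (rows) on the 3 arrays in the EpH4-PR channel (left) and the reference channel (right), with a grey band from the lowest median to the brightest negative control spot. The first Vim probe reads 917 to 1083 on the left and 25986 to 29941 on the right. Other probes, among them the second Vim probe, a Gfap probe and the Nefm probe, lie at or beside the band in both channels.

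Nestin, a large filament protein of neural progenitors and of developing muscle, was the other gene with a lower call. Its probe read 252, 241 and 242 in Cy5 and 407, 370 and 361 in Cy3. The log2 ratio was -1.62, -1.51 and -1.60, a mean of -1.58 ± 0.06 (SD, n = 3), or 2.98-fold lower. In Cy5 it was 3.55, 3.49 and 4.36 times the background fitted for the spot. The 3 arrays lay close together, but the spot means before any correction gave only -0.69, -0.62 and -0.58. The other 0.93, 0.89 and 1.02 log2 units came from background correction and loess together. With the median of the array as the centre the mean ratio was -0.68, and Nes was not called.

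On the same arrays the ratio of Vim minus that of Nes was -4.84, -4.92 and -5.04, a mean difference of -4.93 ± 0.10 (SD, n = 3). With median centring the difference was -4.36 ± 0.17.

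Desmin, the filament protein of muscle, was near background in EpH4-PR RNA. It read 75.6, 84.8 and 64.3 in Cy5, well above background on 1 of 3 arrays, and 139, 144 and 113 in Cy3, well above background on all 3. The log2 ratio was -0.50, -0.42 and -0.49, a mean of -0.47 ± 0.04 (SD, n = 3). In Cy5, 45, 1 and 0 negative control spots were at or above it. The value moved to -1.37 with a normexp offset of 0 and to -1.82 in the log ratio of the scanner software, which differs in both its background subtraction and its dye normalization.

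Glial fibrillary acidic protein, the filament of astrocytes, had 2 probes. The one designed on the mRNA K01347 read 74.9, 66.8 and 61.1 in Cy5 and 116, 104 and 90.1 in Cy3 and was not well above background in either channel on any array, so no fold is given. The RefSeq probe read 99.9, 95.6 and 75.4 in Cy5 and 159, 144 and 107 in Cy3, brighter than every negative control spot. Its ratio was -0.48, -0.29 and -0.21, a mean of -0.33 ± 0.14 (SD, n = 3), below 0 on each array and with a spread over 2 times the median of the 13 probes.

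Neurofilament light chain, Nefl, a core subunit of the neuronal filament, read 103, 107 and 76.5 in Cy5 and 156, 174 and 111 in Cy3. The ratio was -0.41, -0.77 and -0.33, a mean of -0.50 ± 0.23 (SD, n = 3), with replicate 2 below the other 2 arrays. This was the widest spread of the 13 probes. Without replicate 2 the mean was -0.37.

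Nefm, the medium neurofilament chain, and Prph, peripherin of peripheral neurons, each had a channel that lay among the negative controls. The Nefm probe read 71.5, 81.1 and 61.0 in Cy5 and 111, 124 and 88.4 in Cy3, and each channel was well above background on 1 of 3 arrays. Its ratio was -0.02, -0.08 and 0.05, on both sides of 0. The Prph probe read 91.1, 93.6 and 77.3 in Cy5, above all negative control spots, and 117, 113 and 102 in Cy3, where 161, 226 and 12 negative control spots were at or above it. Its ratio was 0.22, 0.35 and -0.07, a mean of 0.17 ± 0.22 (SD, n = 3), also on both sides of 0. For the 2 genes the spread between arrays was as large as the ratio itself.

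The lamin genes had 6 probes, whose mean ratios ran from -0.34 to 1.75. The A-type lamin gene, Lmna, lies at chr3:88481148-88509932 (GRCm38.p6) and had 3 probes, all for the same RefSeq accession. The probe A_51_P313566 read 14834, 12101 and 14157 in Cy5 and 5755, 5027 and 5758 in Cy3, A_52_P137765 read 7417, 6430 and 6937 in Cy5, and A_51_P313561 read 3575, 3633 and 3649. None of the 3 was called.

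The 3 Lmna probes did not give 1 ratio. The first had -0.32, -0.36 and -0.35, a mean of -0.34 ± 0.02 (SD, n = 3), the second -0.30, -0.26 and -0.37, a mean of -0.31 ± 0.06, and the third 0.00, 0.16 and 0.05, a mean of 0.07 ± 0.08. On the same arrays the third lay above the first by 0.32, 0.51 and 0.40 and above the second by 0.31, 0.41 and 0.42, so this gap was there on each array. As scanned, all 3 probes were brighter in Cy5, by 1.22 to 1.62 log2 units, and background correction and loess together took off 1.46 to 1.69. With median centring the 3 means were 1.17, 1.15 and 1.46, so the side of 0 on which the first 2 lie depends on the centring.

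Lamin B1, a B-type lamin that stays bound to the nuclear membrane, was the gene with a higher call. The Lmnb1 probe read 4043, 4036 and 4266 in Cy5 and 501, 460 and 472 in Cy3. Its ratio was 1.65, 1.83 and 1.77, a mean of 1.75 ± 0.09 (SD, n = 3), or 3.36-fold higher in EpH4-PR RNA. It ranked 145 from the top among those 25729 probes. It was above 0 under each of the 12 other settings run on it, from 1.71 to 3.08, as was the third Lmna probe, while the first 2 Lmna probes changed sign with median centring.

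Differences between the lamins on 1 array moved less with the centring, although the loess curve changes with brightness and so still enters them. Lmnb1 lay above the first Lmna probe by 1.97, 2.18 and 2.12 log2 units, a mean of 2.09 ± 0.11 (SD, n = 3), above the second by 2.06 ± 0.10 and above the third by 1.68 ± 0.04. With median centring the 3 differences were 1.91, 1.93 and 1.62. These compare how far each gene lay from the reference, not how much of each lamin the cells held.

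Lamin B2, the other B-type lamin, had 2 probes. The brighter one (A_52_P426554) read 664, 566 and 541 in Cy5 and 315, 296 and 237 in Cy3, and its ratio was 0.09, 0.01 and 0.19, a mean of 0.10 ± 0.09 (SD, n = 3). Lmnb1 lay above it by 1.56, 1.82 and 1.58, a mean of 1.65 ± 0.14, and by 1.97 ± 0.14 with median centring. The dimmer probe (A_52_P460319) read 119, 121 and 100 in Cy5 and 127, 127 and 96.0 in Cy3, with a ratio of 0.37, 0.31 and 0.34, a mean of 0.34 ± 0.03. Its Cy3 signal lay among the negative controls, of which 32, 40 and 54 were at or above it, although the scanner software marked it as well above background. Both Lmnb2 probes were above 0 on each array and neither was called.

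**Figure D3:**
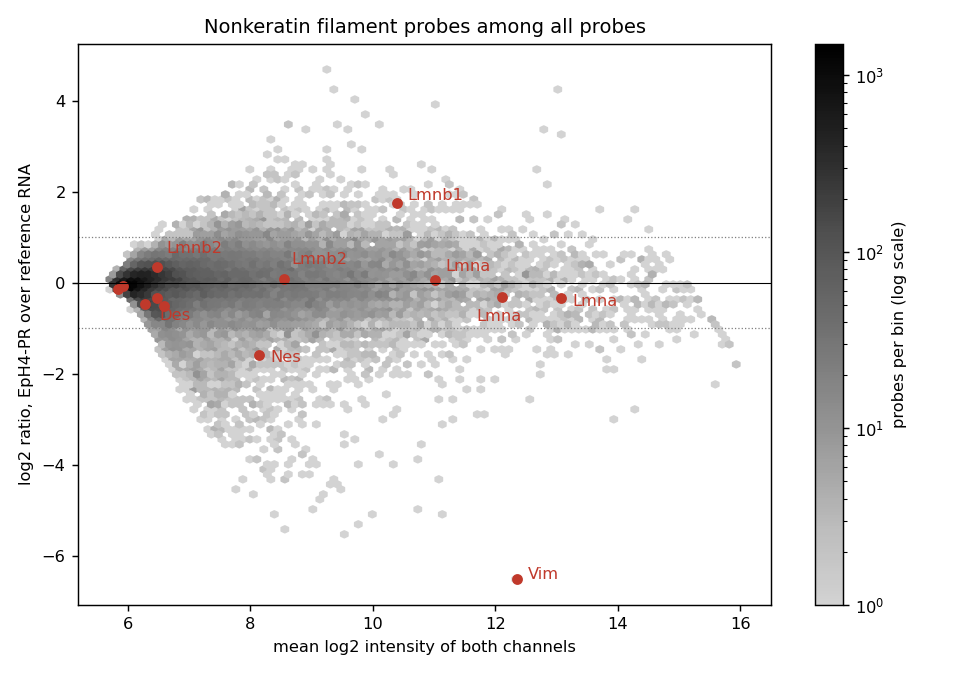
Mean log2 ratio, Cy5 (EpH4-PR) over Cy3 (reference), on the y axis against the mean log2 intensity of both channels (x axis), with all probes as grey bins and the 13 probes as red points. Vim lies alone at -6.51, Lmnb1 at 1.75 near the upper edge, and the 3 bright Lmna probes between -0.34 and 0.07.

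The array describes other genes of the same family and of its partners, from lists made for this purpose with earlier results of these data known. Of 13 probes of 9 other nonkeratin filament genes, 1 was called higher and 0 lower, beside 2.26% and 3.83% of all probes, and 8 passed the scanner software's background test in each channel on all arrays. The call was a probe of Nefh, the heavy neurofilament chain, at 1.97, 1.84 and 1.62, averaging 1.81 ± 0.18 (SD, n = 3) with an adjusted p of 6.58e-05 by limma. Its Cy5 intensity was 405, 374 and 416, but its Cy3 intensity of 111, 112 and 96.7 lay among the negative controls, whose medians are given above, so the size of this ratio rests on a reference channel with little signal. The other Nefh probe had 0.64 ± 0.20 and was not called. The lowest was Synm, synemin, which joins vimentin and desmin filaments, at -0.78 ± 0.10, while its other probe had -0.05 ± 0.14.

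Of 18 probes of 7 plakin family genes, which tie filaments to junctions and to other fibres, 2 were called higher and 0 lower, beside 2.26% and 3.83% of all probes. They were probes of Evpl (envoplakin) at 2.39 ± 0.09 (SD, n = 3, adjusted p = 1.81e-05 by limma) and of Ppl (periplakin) at 1.05 ± 0.14, 2 partners in the envelope of stratified epithelia. The other Evpl probe had 0.78 ± 0.16 and was not called. Ppl had 0.89 on replicate 1 and 1.16 on replicate 2, with replicate 3 between them, and was not called without replicate 2. The lowest plakin was Macf1, a linker of actin and microtubules, at -0.66 ± 0.03.

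Of 33 probes of 15 nuclear lamina genes, partners of the lamins, 0 were called, beside 3.83% lower and 2.26% higher of all probes. Of the 33, 27 passed the background test in each channel on all arrays. The 33 ran from Tor1aip2, a torsin cofactor, at -0.57 ± 0.04 to Lbr, the lamin B receptor, at 0.69 ± 0.00 (SD, n = 3). Their median was 0.00. The other 3 Tor1aip2 probes lay above 0, at 0.19, 0.19 and 0.49, so that gene has no single direction here. Of 12 probes of 6 genes for processing of the lamin tail, 0 were called, beside the same shares of all probes. Lists of this size can hold no call at such shares, so nothing is read from these counts of 0. The 12 ran from Zmpste24, the protease that cuts prelamin A, at -0.42 ± 0.08 to Rce1, which trims the tail after farnesylation, at 0.72 ± 0.07. With median centring 14 of the 33 and 3 of the 12 were called higher, beside 7031 of all 41174 probes. These counts thus depend on the centring, as the Lmna ratios do and as the count over all probes does.

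Keratins are the filaments of the cell type named in the labels. Of 7 probes of 6 keratin genes, 5 were called higher and 1 lower, beside 2.26% and 3.83% of all probes. The Krt8 and Krt18 probes among them are the same as those counted with the epithelial markers. Krt7, a keratin of simple epithelia, was highest at 3.93, 3.96 and 4.08, averaging 3.99 ± 0.08 (SD, n = 3) with an adjusted p of 1.16e-05 by limma. Krt19, the smallest keratin of simple epithelia, was lowest at -2.58, -2.46 and -2.81, averaging -2.62 ± 0.18 with an adjusted p of 2.97e-05 by limma, which is below Nes and above Vim. The scanner software marked all 7 keratin probes as well above background in Cy5 on all arrays. Krt19 read only 100, 106 and 85.4 there, against 82.6, 85.2 and 62.8 for the brightest negative control spots. The size of its ratio thus rests on little signal in EpH4-PR RNA.

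Markers of cell types that the listed genes are known for moved as follows, with Vim, Des, Gfap, Nes, Nefl, Nefm and Prph left out of them. Of 11 probes of 6 mesenchymal genes, 7 were called lower and 0 higher, beside 3.83% and 2.26% of all probes, with the lowest for Col3a1, a fibrillar collagen chain, at -5.10 ± 0.10 (SD, n = 3) and the highest measured for another Col3a1 probe at -0.14 ± 0.16. Their summed intensity, with background included, was 14717 to 17540 in Cy5 and 42407 to 46860 in Cy3. Most of the Cy5 sum was the single probe of S100a4, a calcium-binding protein, which read 14674, 11994 and 14349 there and had a ratio of -2.76 ± 0.05, and 2 of the 11 were not well above background in Cy5 on any array. The Vim ratio was therefore 1 of several low ratios of mesenchymal genes against this reference, and the part that the makeup of the reference has in them was not tested.

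Of 7 muscle probes, beside the same 3.83% of all probes, 1 was called lower, Acta1 (skeletal muscle actin) at -2.09 ± 0.18, and the highest measured was Actc1 (cardiac muscle actin) at 0.22 ± 0.11. None of the 15 probes for neurons and glia was called, beside 3.83% lower and 2.26% higher of all probes. The measured ones ran from Stmn2, a neuronal stathmin, at -0.72 ± 0.16 to Mbp (myelin basic protein) at 0.71 ± 0.05. Another Mbp probe had -0.46 ± 0.30. A further one had 0.26 ± 0.13, with Cy3 not well above background on any array, so Mbp has no single direction here. Of 9 immune probes, 4 were called lower, beside 3.83% of all probes. A probe of Ptprc, the leukocyte antigen CD45, was not well above background in Cy5 on any array. Under the normalization used here it was at least 19.8-fold lower in EpH4-PR RNA. As scanned it read 75.3, 73.7 and 61.8 in Cy5 and 777, 762 and 776 in Cy3, so part of that bound came from background correction and loess. Other Ptprc probes had -1.40 ± 0.06, which was called lower, and -0.19 on 2 arrays, which was not called. The lowest ratio measured in both channels was that of Adgre1, a macrophage receptor, at -2.56 ± 0.24. This Adgre1 probe read only 95.2, 103 and 71.9 in Cy5, against 82.6, 85.2 and 62.8 for the brightest negative control spots. The size of its ratio thus rests on little signal in EpH4-PR RNA. The highest ratio measured in both channels was for Cd3e, a T cell receptor chain, at 0.11 ± 0.07. The other Adgre1 probe had -0.40 ± 0.53 and was not called. None of the 4 endothelial probes was called, beside the same 3.83% and 2.26% of all probes. None of the 4 was well above background in Cy5 on all arrays. Summed over its probes with background included, each of these 4 lists read between 242 and 4817 in Cy5. The lists differ in their number of probes, so these sums do not compare levels between them.

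**Figure D4:**
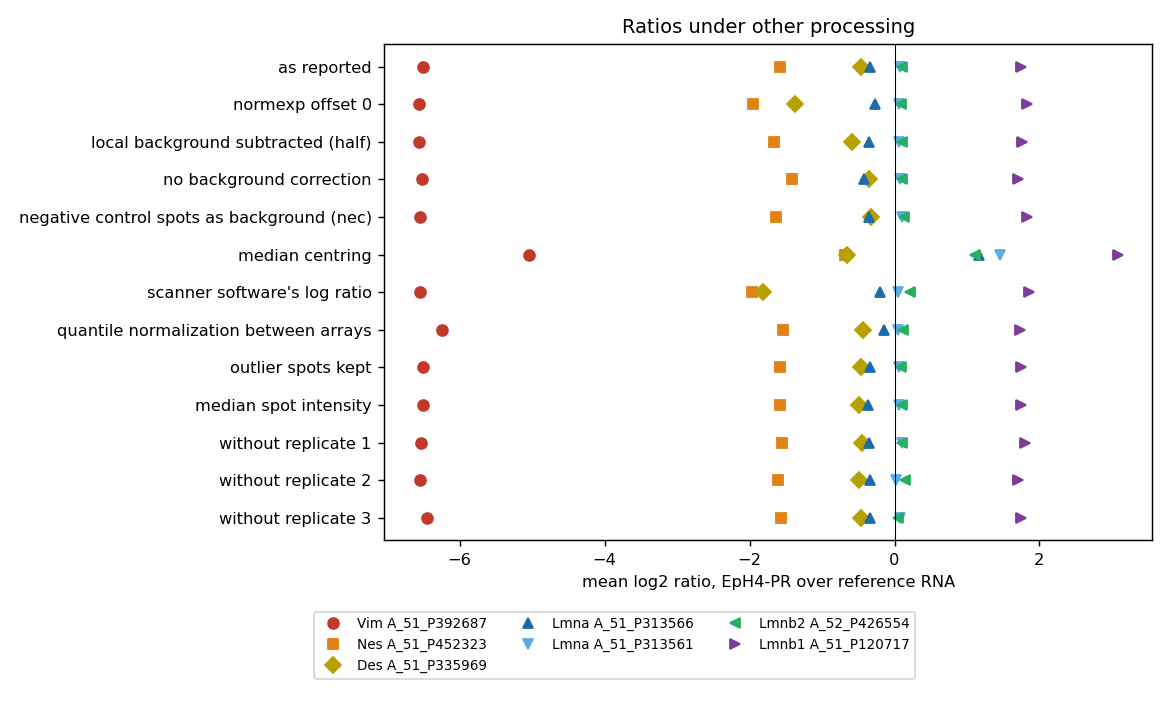
Mean log2 ratio, Cy5 (EpH4-PR) over Cy3 (reference), on the x axis for 7 probes of 6 genes under the setting reported and 12 others (rows). Vim stays between -6.56 and -5.04 and Lmnb1 between 1.71 and 3.08, while median centring carries the Lmna probes from near 0 to above 1 and Nes to -0.68.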

How the data were processed

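For each array the authors deposited what Agilent Feature Extraction 8.1.1.1 wrote, with intensity values per spot in both channels, background intensities and flags (other columns). The deposited log10 ratio is Cy5 over Cy3, background-subtracted and dye-normalized by that software. A further table, made by the authors, holds their own comparison (fold changes and p-values) and was not used here. For normalization and testing of the arrays the study cites an earlier publication, so those settings were chosen here.

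Spot means were background-corrected with normexp on the local background (offset 50) and normalized by loess within each array in limma 3.58.1 under R 4.3.3, with control and outlier spots (150, 18 and 3 gene spots) at weight 0 in loess. These were left out, and spots of a probe were averaged. The test was limma's lmFit and eBayes on the ratios against 0. Probes of a gene were kept apart. A probe not well above background in 1 channel on any array got a bound, the brighter mean over the higher of its own level and the lowest level of probes well above background. The fit was tested on simulated data. Figures were drawn with matplotlib 3.10.9.

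The listed genes, the other lists and the tests were chosen with earlier results of these data known. Named genes were each probe of the listed genes, the highest and lowest measured gene of each other list, and the 3 named genes next to Vim. Added after their values were seen were Ppl, S100a4, Ptprc, Cldn4, Esrp1, Krt5, Krt14 and Krt18. So were the other probes of Nefh, Synm, Evpl, Tor1aip2, Mbp, Ptprc and Adgre1. Current symbols came from RefSeq accessions (assembly GRCm38.p6), which matched 21445 of 23705. The files name no genome build. Alternatives covered background correction, centring, normalization between arrays, dim probes, outlier spots, the spot summary, the variance model, a 1-sample t-test of the ratios and each array left out.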

Additional observations from a re-analysis of the deposited data

How the results depend on the processing

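No paired analysis was possible because the arrays form 1 group. Vim stayed the lowest named ratio under all settings but 2: it ranked 2 with normexp offset 0 (Efemp1 at -6.88) and 4 in the log ratio of the scanner software (Efemp1 at -7.12). With normexp offset 0 the counts called lower and higher were 3905 and 3125 over all probes, 5 lower for the 13 listed probes, 2 and 3 for other nonkeratin filament genes, and 5 probes of linkers and 2 of nuclear lamina partners were higher. With median centring they were 708 and 7031 (90.9% higher, against 37.1%), 1 and 5 for the listed probes, and 5 probes of linkers, 14 of nuclear lamina partners and 3 probes of lamin tail processing were higher, as the median of probes well above background in both channels moved from 0.04 to 0.42. In the log ratio of the scanner software they were 3887 and 3616 (48.2% higher), 2 higher for the listed probes, 2 and 3 for other nonkeratin filament genes, and 7 probes of linkers and 3 of nuclear lamina partners were higher. Without background correction 1 linker probe was called higher. With each array left out in turn, the linker probes called higher were 1 to 2, 1 of them without replicate 2. A 1-sample t-test of the ratios against 0, in place of limma, called 1577 probes lower and 929 higher unadjusted, and 1547 and 897 after Benjamini-Hochberg adjustment. No listed probe that was called changed sign, and the cause of these changes was not tested. The ratios of Des, Gfap, Nefl and the second Vim and Lmnb2 probes rest on signals near the negative controls. Over the settings Des ran from -1.82 to -0.32 and the second Vim probe from -1.18 to -0.02. A small SD between arrays, such as 0.04 for Des, does not remove this limit.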
